A study of Rattus norvegicus with 30 samples.

Results

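This comparison concerns the livers of 5 rats fed casein and freeze-dried tofu in equal parts (T10) and of 5 rats fed casein as the only protein (C). They are 10 of the 30 arrays of the study, chosen by the diet named in the labels, with 1 array per animal. Each T10 diet held 100 g/kg of protein from casein and 100 g/kg from tofu, and each C diet 200 g/kg from casein. All animals were male Sprague-Dawley rats, 4 weeks old on arrival, housed singly, given a commercial diet for 5 days and then the test diet for 14 days with free access to food, and bled under ether before the liver was removed. Comparisons below also draw on CI, which was the C diet with an isoflavone mixture at the level of T20, and on T20, in which tofu supplied all 200 g/kg of protein. The isoflavone of the tofu itself was part of T10, so T10 differed from C in more than the protein. The sources used here give the protein of each diet, and the other components were not analysed here.

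The liver makes fatty acids from surplus carbohydrate, esterifies them to triglyceride, stores the product in lipid droplets and secretes it on lipoproteins. Cholesterol leaves the body mainly through the hepatocyte, either after conversion to bile acids or as free sterol pumped into bile. Soy foods are widely studied for their effect on both of these lipid routes, and the series title names serum lipids and hepatic lipid metabolism as its subject.

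Gene expression was read as the intensity of each probe set on 1-colour Affymetrix arrays. Levels below are log2 intensity, differences are T10 minus C on that scale ± SE with n = 5 livers a group. Limma gave the p-values, adjusted over all 18625 probe sets tested. "Passed" means an adjusted p under 0.05, and "rose" and "fell" are used only of genes that passed. A gene was read through its tested probe set of highest mean. The 11 hepatocyte markers tested, albumin and apolipoproteins among them, gave 0 cells at 0, and their summed intensity was 440263 to 571761 in C and 492434 to 599999 in T10.

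T10 replicates 3, 4 and 5 stood apart in 1 measure of RNA quality. The ratio of the 3' to the 5' control probe set of GAPDH was 1.58, 1.51 and 1.32 in them, against a range of 0.97 to 1.25 over the other 27 arrays. T10 replicates 1 and 2 were at 0.97 and 1.05, and C at 1.01 to 1.19. For beta-actin the same ratio gave 2.35 to 2.43 in those 3 livers and 2.21 to 2.65 in C. Correlations between arrays were 0.96 to 0.977 within T10, 0.964 to 0.974 within C and 0.953 to 0.976 between them, and median intensities were 220 to 240 in T10 and 228 to 240 in C. The number of arrays limits the precision.

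**Figure D1:**
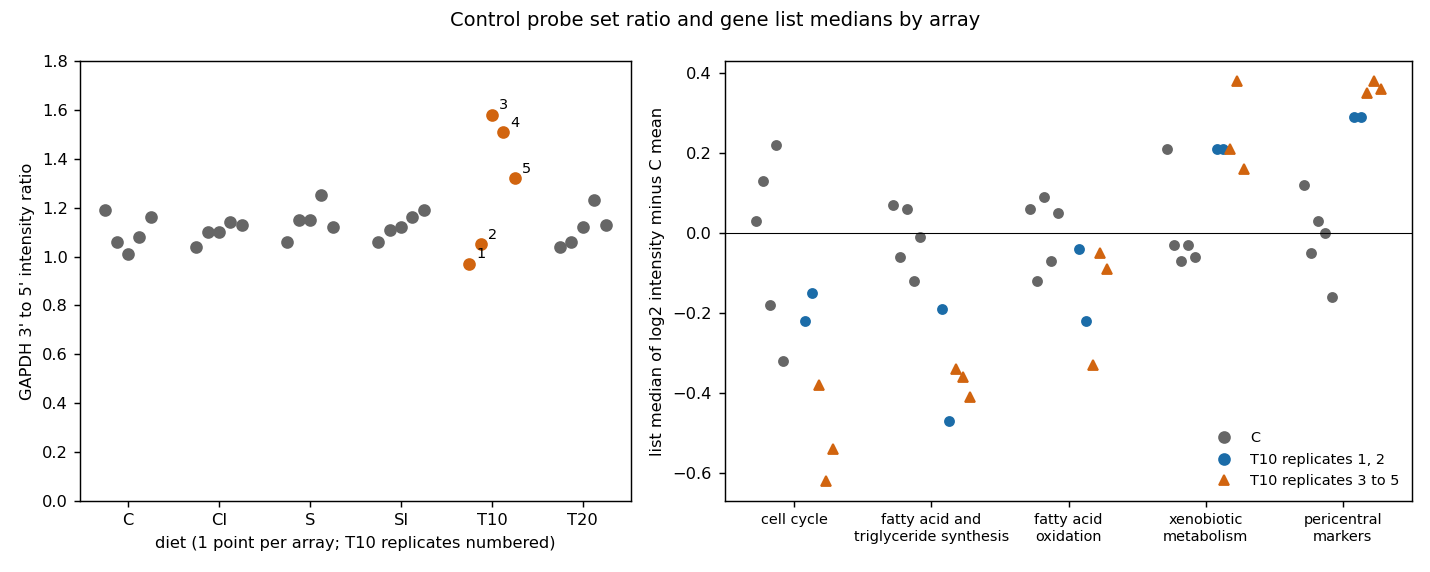
The left panel plots the GAPDH 3' to 5' intensity ratio of each of the 30 arrays by diet, and T10 replicates 3, 4 and 5 lie above all others at 1.32 to 1.58. The right panel plots, for each C and T10 array, the median over the genes of a list of log2 intensity minus the C mean; for the cell cycle list T10 replicates 1 and 2 lie at -0.22 and -0.15 and replicates 3 to 5 at -0.38 to -0.62.

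Between T10 and C, 43 of 10699 genes passed, which is 0.402% of the genes tested. Of these 21 rose (0.196%) and 22 fell (0.206%), by 1.22-fold to 6.35-fold and by 1.32-fold to 8.15-fold. Over probe sets the count was 60 of 18625 (0.322%), and 1845 (9.91%) had an unadjusted p under 0.05. Over genes 4.01% were higher and 6.11% lower at that p, the shares to set beside such counts for the lists below. The median difference of all genes tested was -0.02. In 40 of the 43 genes all T10 livers lay on 1 side of all C livers, and *Tmem229a*, *Ddhd2* and *Acacb* were the 3 exceptions. Of all 10699 genes 215 were so separated (2.01%), 0.972% with T10 above and 1.04% with T10 below. The 43 were picked by a small p in these same livers, which favours such separation, so it adds no support. Each gene was counted by its probe set of highest mean; *Fasn*, *Ddb1* and *Plxna2* passed through another one and are outside the 43, and 8 further probe sets that passed carry no single gene symbol. Of the 10 genes among the 43 with several tested probe sets, *Acot2*, *Adk*, *Cdk13*, *Mgll*, *P4ha2* and *Pcp4l1* had at least 1 that did not pass.

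**Figure D2:**
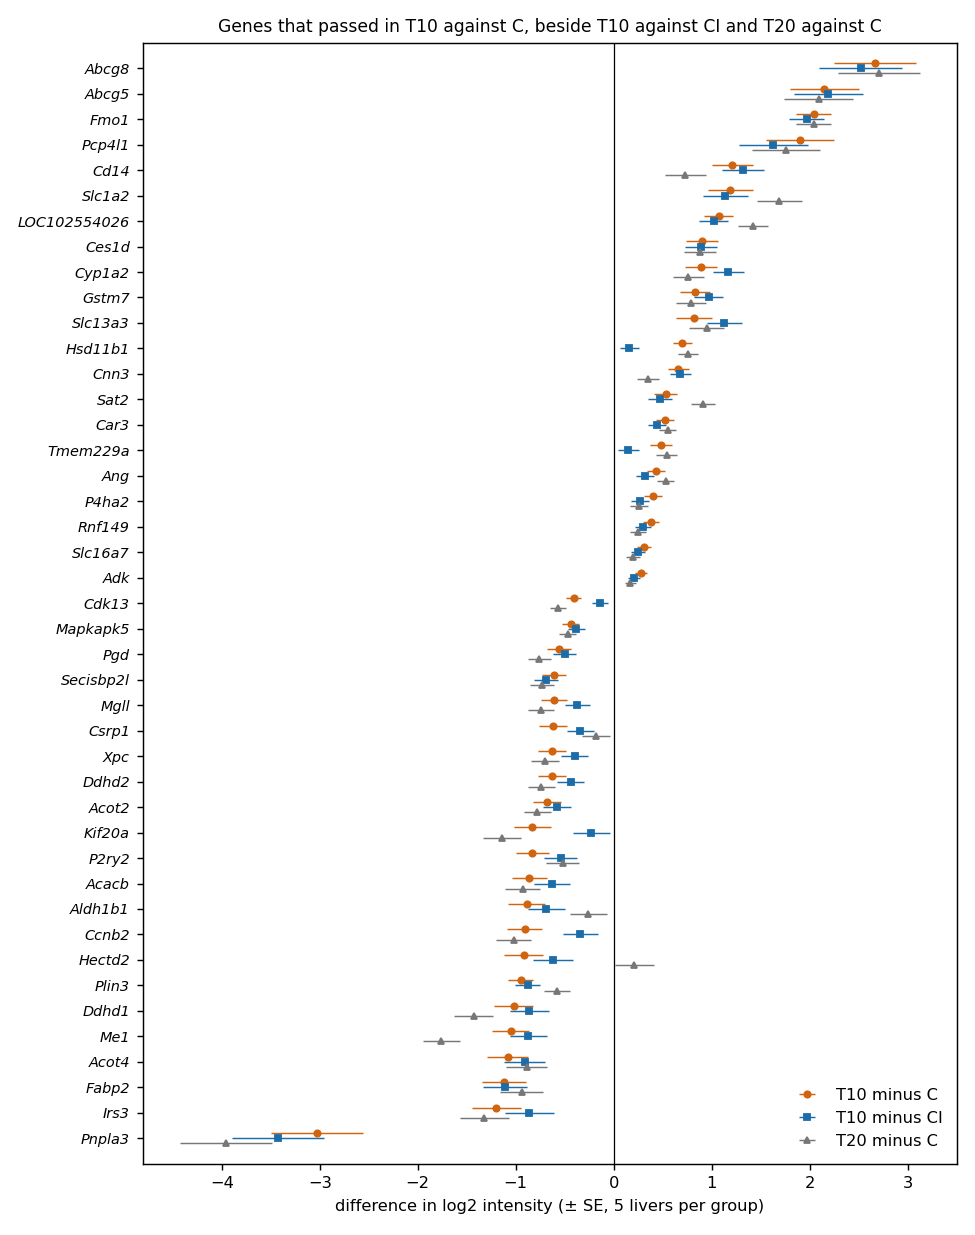
Each row is 1 of the 43 genes that passed between T10 and C, and the points are differences in log2 intensity ± SE (5 livers a group) for T10 minus C, T10 minus CI and T20 minus C. T10 minus C runs from 2.67 for *Abcg8* to -3.03 for *Pnpla3*; the comparisons share the T10 or the C arrays, so their points are not independent of each other.

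The sterol exporter of the canalicular membrane was the largest rise. *Abcg5* and *Abcg8* encode the paired subunits of the transporter that pumps cholesterol and plant sterols into bile. The genes lie head to head, and their RefSeq starts on chromosome 6 of build GRCr8 are 206 bases apart on opposite strands. The stretch between the starts is shown because both genes that rose share it. It is chr6:15717731-15717935, read on the strand of *Abcg5*, and capitals mark a TATA box (TATAAA) and a CCAAT box on the other strand (ATTGG).

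*Abcg5* and *Abcg8*: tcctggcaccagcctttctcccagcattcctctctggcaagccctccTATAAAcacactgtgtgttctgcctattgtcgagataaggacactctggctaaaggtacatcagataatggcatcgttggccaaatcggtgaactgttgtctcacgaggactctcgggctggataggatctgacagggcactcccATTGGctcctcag

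*Abcg8* stood at 6.08, 6.14, 6.68, 7.51 and 7.67 in C replicates 1 to 5. In T10 replicates 1 to 5 it stood at 10.77, 8.74, 8.84, 9.59 and 9.47. Every T10 liver was above every C liver, T10 replicate 1 was the highest of all, and C replicates 4 and 5 were above the other C livers. The difference was 2.67 ± 0.42 (6.35-fold, adjusted p = 0.00142), and the C mean was dimmer than the filter on probe sets, a log2 intensity of 7.388. *Abcg5* stood at 7.95, 8.21, 8.38, 8.74 and 9.08 in C and at 11.43, 10.14, 10.22, 10.71 and 10.62 in T10. Here too the groups did not overlap, and T10 replicate 1 was again the highest. *Abcg5* rose by 2.15 ± 0.35 (4.44-fold, adjusted p = 0.00223); without T10 replicates 3, 4 and 5, which leaves 2 T10 livers, its adjusted p was 0.0866.

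The list of LXR targets and sterol efflux genes, which respond to oxysterols through the liver X receptors, held 19 tested genes. *Abcg5* and *Abcg8* rose and 0 fell, against 0.196% and 0.206% of all genes. The median of the list was 0.13, against -0.02 over all genes, and 0.018 to 0.218 over the alternative scalings of the arrays. Of the 19 differences 11 were positive and 8 negative, where 43.7% of all genes had a positive one. At an unadjusted p under 0.05, 3 were higher and 1 lower, against 4.01% and 6.11% of all genes. In the 22 tested genes of cholesterol synthesis and uptake limma called 0, with 1 higher and 1 lower at an unadjusted p under 0.05. Their median of -0.02 changed sign when arrays were centred on their median. T10 replicate 1 had a list median 0.41 above the C mean, and the other T10 livers lay between -0.08 and 0.00. *Insig1*, which holds the sterol sensor in the endoplasmic reticulum, read 13.38 to 14.46 in C and 12.38 to 13.48 in T10, and its difference of -1.21 ± 0.43 missed the threshold (adjusted p = 0.319). *Hsd17b7*, an enzyme of late cholesterol synthesis, differed by 0.45 ± 0.17 (adjusted p = 0.341), and *Sqle*, squalene epoxidase, by 0.38 ± 0.22 (adjusted p = 0.592).

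Bile acid genes as a group gave no call. Of 28 tested genes of bile acid synthesis, conjugation and transport limma called 0, with 6 higher and 1 lower at an unadjusted p under 0.05, where 4.01% and 6.11% of all genes were. Their median was 0.15, and it stayed above 0 under every alternative run. *Cyp7a1*, the rate-limiting enzyme of the classic bile acid route, read 8.34 to 10.51 in C and 8.69 to 10.36 in T10. C replicate 4, at 10.51, was the highest of the 10 livers, and the 95% interval of the difference ran from -0.87 to 1.54. *Cyp8b1*, which makes the cholic acid branch, had a difference of 0.14 ± 0.19 (adjusted p = 0.864), and *Nr0b2*, the repressor SHP, 0.20 ± 0.60 (adjusted p = 0.938). The members of smallest p were *Slco1a4*, an uptake transporter, at 0.76 ± 0.26 (adjusted p = 0.303) and *Hsd3b7*, an enzyme of bile acid synthesis, at 0.57 ± 0.23 (adjusted p = 0.396). In *Hsd3b7* C replicate 2 read 11.10 and the other C livers 12.17 to 12.65, and without it the difference was 0.30.

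Of 17 tested genes of lipoprotein assembly limma also called 0. At an unadjusted p under 0.05, 2 were higher and 4 lower, against 4.01% and 6.11% of all genes. The list median was 0.08, and -0.001 after quantile normalization. *Apobec1*, which edits the apolipoprotein B transcript, read 9.62 to 10.03 in C and 9.17 to 9.54 in T10 without overlap, and its difference of -0.44 ± 0.11 did not pass (adjusted p = 0.109). *Angptl8*, an inhibitor of lipoprotein lipase activity that rises with feeding, differed by -1.10 ± 0.35 (adjusted p = 0.243).

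Genes of fatty acid and triglyceride synthesis lay lower in T10. Of 33 tested genes 4 fell and 0 rose, against 0.206% and 0.196% of all genes. A positive difference was found in 3, where 43.7% of all genes had one. At an unadjusted p under 0.05, 16 were lower and 0 higher, against 6.11% and 4.01% of all genes. The list median was -0.39, and by array it was -0.19 to -0.47 in T10 and -0.12 to 0.07 in C, so the groups did not overlap. T10 replicate 1 lay nearest to C. Without T10 replicates 3, 4 and 5 the median was -0.33 and 2 of the genes passed.

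*Pnpla3* was the largest fall. It encodes adiponutrin, a lipid droplet protein whose transcript rises with carbohydrate feeding under the lipogenic transcription factors. The 250 bases before its start are given as those of the largest fall, at chr7:117173278-117173527 on the plus strand of GRCr8, with CCAAT boxes of the other strand (ATTGG) in capitals.

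*Pnpla3*: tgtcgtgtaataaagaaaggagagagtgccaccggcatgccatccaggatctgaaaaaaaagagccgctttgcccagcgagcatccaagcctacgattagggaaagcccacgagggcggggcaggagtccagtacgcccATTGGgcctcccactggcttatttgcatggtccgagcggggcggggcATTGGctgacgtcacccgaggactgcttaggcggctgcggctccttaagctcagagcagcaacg

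*Pnpla3* read 12.68, 12.13, 11.96, 11.68 and 11.93 in C and 10.15, 8.61, 9.20, 8.20 and 9.08 in T10. The lowest C liver was above the highest T10 liver, which was T10 replicate 1, and T10 replicate 4 was the lowest. *Pnpla3* fell by 3.03 ± 0.47 (8.15-fold, adjusted p = 0.00142). Its other probe sets passed as well, at -3.05 ± 0.50 and -2.27 ± 0.35 (adjusted p = 0.00232 and 0.00142). Without T10 replicates 3, 4 and 5 the adjusted p of the first probe set was 0.183.

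*Me1*, the cytosolic malic enzyme that supplies NADPH for fatty acid synthesis, read 13.10, 12.44, 12.51, 12.67 and 12.79 in C and 11.58, 11.13, 11.67, 11.90 and 12.00 in T10. The groups did not overlap, T10 replicate 2 was the lowest and C replicate 1 the highest. *Me1* fell by 1.05 ± 0.19 (2.07-fold, adjusted p = 0.0062), and its other probe set by 1.43 ± 0.27 (adjusted p = 0.0096). *Pgd*, the pentose phosphate enzyme that also yields NADPH, read 12.62, 12.70, 12.69, 12.55 and 12.60 in C and 12.13, 11.97, 12.14, 12.04 and 12.08 in T10. Both groups were narrow and apart. *Pgd* fell by 0.56 ± 0.12 (adjusted p = 0.027), but the call ended without any 1 of 7 arrays, every one except C replicate 4 and T10 replicates 1 and 3 (range of adjusted p with 1 array out 0.0392 to 0.0954). *Acacb*, the acetyl-CoA carboxylase of the mitochondrial surface, whose product restrains fatty acid entry into mitochondria, read 8.38, 8.53, 9.27, 8.84 and 9.07 in C and 7.71, 7.58, 7.82, 8.45 and 8.21 in T10. T10 replicate 4 was above C replicate 1, so the groups overlapped. *Acacb* fell by 0.86 ± 0.18 (adjusted p = 0.0215), and the call ended without C replicates 3 or 5 or T10 replicates 1 or 2 (range of adjusted p with 1 array out 0.00936 to 0.0954).

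*Fasn*, fatty acid synthase, makes palmitate. Its probe set of highest mean read 14.01, 14.23, 13.51, 13.02 and 13.49 in C and 12.82, 11.77, 12.19, 11.20 and 11.69 in T10. The groups did not overlap, but the difference of -1.72 ± 0.47 did not pass (adjusted p = 0.134). Its other probe set differed by -1.88 ± 0.41 and did pass (adjusted p = 0.0332). That call ended without any 1 of 7 arrays, every one except C replicate 4 and T10 replicates 1 and 3 (range of adjusted p with 1 array out 0.0268 to 0.128), and with the GAPDH ratio as a covariate (adjusted p = 0.156). The first probe set passed when only the T10 and C arrays were fitted. *Acaca*, the cytosolic acetyl-CoA carboxylase, read 11.92 to 12.37 in C and 11.34 to 11.78 in T10 without overlap, a difference of -0.70 ± 0.18 (adjusted p = 0.114). *Acaca* passed in that fit as well. *Elovl6*, a fatty acid elongase, differed by -0.82 ± 0.24 (adjusted p = 0.195), again without overlap.

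*Scd*, the desaturase that makes oleate, split the T10 livers. It read 15.07, 14.86, 15.02, 14.72 and 15.15 in C and 13.72, 13.40, 13.91, 14.86 and 15.01 in T10. T10 replicates 1, 2 and 3 were below every C liver, while replicates 4 and 5 lay within the C range. The difference of -0.78 ± 0.28 did not pass (adjusted p = 0.329). *Acly*, which supplies cytosolic acetyl-CoA, read 14.81, 14.84, 14.56, 14.24 and 14.73 in C and 14.41, 13.76, 14.38, 13.44 and 13.09 in T10. T10 replicates 2, 4 and 5 were below every C liver, a different set from that of *Scd*, and the difference was -0.82 ± 0.29 (adjusted p = 0.316).

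Among the regulators, *Srebf1*, the sterol-regulated factor of lipogenesis, read 13.92, 13.41, 12.88, 12.73 and 13.00 in C and 13.45, 11.87, 13.23, 11.53 and 11.69 in T10. T10 replicates 2, 4 and 5 were below every C liver and the difference was -0.83 ± 0.36 (adjusted p = 0.432). *Mlxipl*, the carbohydrate-responsive factor ChREBP, read 10.22, 10.49, 10.52, 10.30 and 10.63 in C and 10.06, 9.88, 10.01, 10.07 and 9.84 in T10. The groups did not overlap, the difference was -0.46 ± 0.12 (adjusted p = 0.0944), and *Mlxipl* passed with array weights. *Ppara*, the receptor that drives fatty acid oxidation, differed by 0.33 ± 0.18 (adjusted p = 0.574). Of the lipid genes set down in full, 20 in number, 18 were tested. Of these 2 rose and 2 fell, against 0.196% and 0.206% of all genes, and their median was -0.58.

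**Figure D3:**
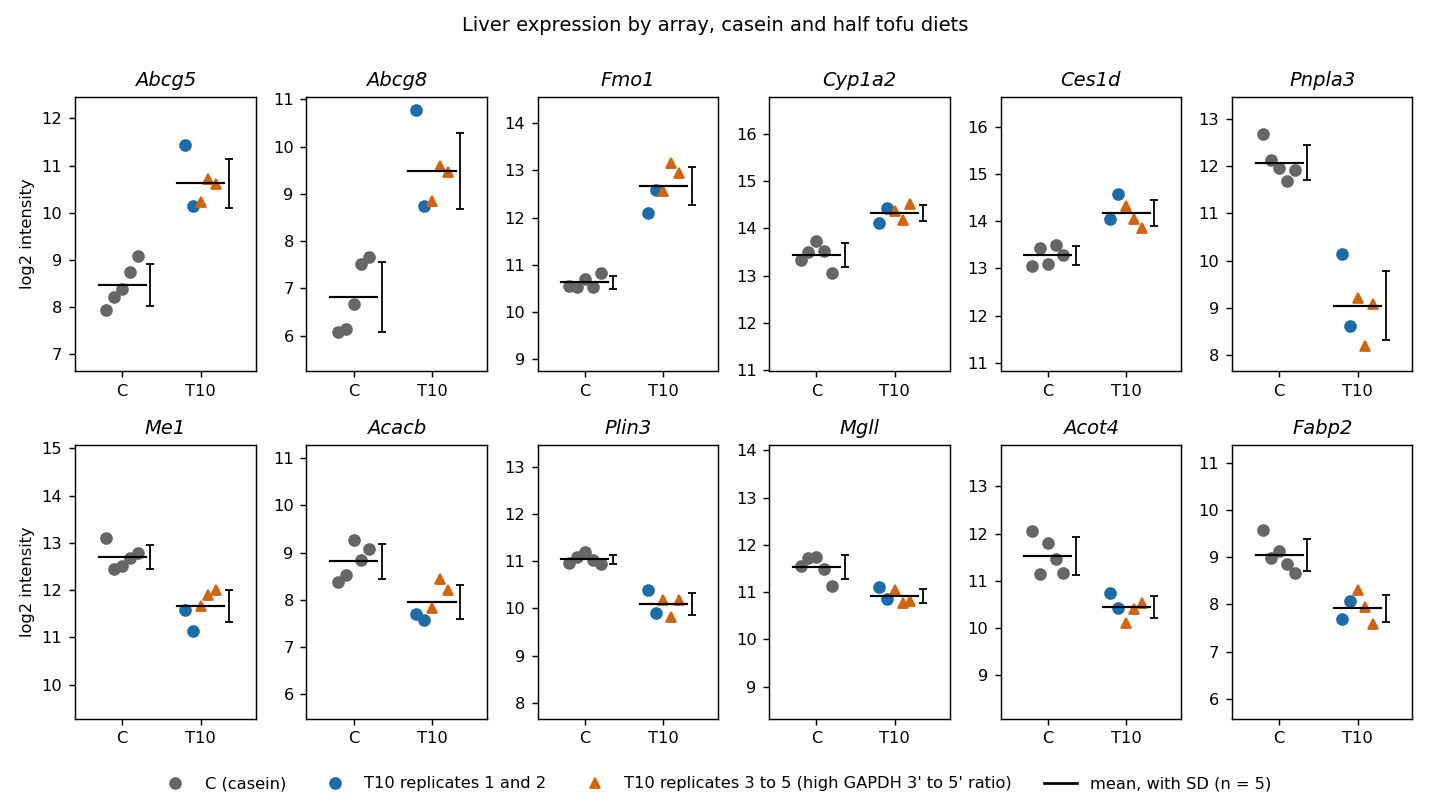
Each panel plots log2 intensity by array for 12 genes that passed, C in grey, T10 replicates 1 and 2 as blue circles and replicates 3 to 5 as orange triangles, with the mean and SD of 5 livers. The groups are apart in every panel except that of *Acacb*, where T10 replicate 4 at 8.45 is above C replicate 1 at 8.38.

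Of 20 tested genes of lipid droplets and their hydrolysis 4 fell and 1 rose, against 0.206% and 0.196% of all genes. Their list median was -0.12. *Plin3*, a coat protein of nascent droplets, had the smallest adjusted p of these. It read 10.97, 11.08, 11.19, 11.02 and 10.94 in C and 10.38, 9.90, 10.18, 9.82 and 10.18 in T10. All T10 livers were below all C livers, and *Plin3* fell by 0.95 ± 0.13 (1.93-fold, adjusted p = 0.000271). *Ddhd1*, a phospholipase, read 10.74, 10.19, 10.27, 10.58 and 10.69 in C and 10.02, 8.79, 9.81, 9.46 and 9.32 in T10. T10 replicate 2 was the lowest, the groups did not overlap, and *Ddhd1* fell by 1.02 ± 0.20 (adjusted p = 0.0153). Its call ended without C replicates 1 or 5 or T10 replicates 2 or 5 (range of adjusted p with 1 array out 0.00767 to 0.0754).

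*Ddhd2*, a related lipase, read 9.38, 9.11, 9.02, 9.09 and 9.40 in C and 8.43, 8.31, 9.18, 8.37 and 8.57 in T10. T10 replicate 3 lay within the C range and the other T10 livers below it. *Ddhd2* fell by 0.63 ± 0.14 (adjusted p = 0.0337), and the call ended without any 1 of 8 arrays, every one except C replicate 4 and T10 replicate 3 (range of adjusted p with 1 array out 0.00171 to 0.14). *Mgll*, the lipase of the last step of triglyceride breakdown, read 11.55, 11.73, 11.75, 11.48 and 11.13 in C and 11.10, 10.85, 11.04, 10.76 and 10.82 in T10. C replicate 5 was the lowest of C and just above T10 replicate 1. *Mgll* fell by 0.61 ± 0.13 (adjusted p = 0.027), a second probe set by 0.66 ± 0.13 (adjusted p = 0.00995), and its other probe set, at -0.37 ± 0.10, did not pass (adjusted p = 0.138). The first call ended without C replicates 1, 2 or 3 or T10 replicates 2, 4 or 5 (range of adjusted p with 1 array out 0.00736 to 0.105). With the GAPDH ratio as a covariate neither the first nor the second held (adjusted p = 0.136 and 0.0512). *Ces1d*, a carboxylesterase that hydrolyses triglyceride and drug esters, went the other way. It read 13.06, 13.43, 13.09, 13.50 and 13.29 in C and 14.05, 14.58, 14.33, 14.05 and 13.86 in T10. The groups were apart, and *Ces1d* rose by 0.90 ± 0.16 (1.86-fold, adjusted p = 0.0079).

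Of 41 tested genes of fatty acid oxidation and PPAR-alpha targets 3 fell and 0 rose, against 0.206% and 0.196% of all genes, and 8 had a positive difference, where 43.7% of all genes did. The list median was -0.13. *Acot4*, a peroxisomal acyl-CoA thioesterase, read 12.05, 11.14, 11.80, 11.47 and 11.17 in C and 10.75, 10.43, 10.10, 10.41 and 10.54 in T10. Every T10 liver was below every C liver. *Acot4* fell by 1.08 ± 0.21 (2.12-fold, adjusted p = 0.0136), and the call ended without C replicates 1 or 3 (range of adjusted p with 1 array out 0.0117 to 0.0658). *Acot2*, its mitochondrial relative, read 11.65, 11.40, 11.99, 11.50 and 11.85 in C and 11.13, 10.97, 10.63, 11.14 and 11.09 in T10. T10 replicate 3 was the lowest and the groups did not overlap. *Acot2* fell by 0.68 ± 0.14 (adjusted p = 0.0167); the call ended without C replicates 3 or 5 or T10 replicates 2 or 3 (range of adjusted p with 1 array out 0.0117 to 0.0861), and its other probe sets, at -0.75 ± 0.20 and -0.37 ± 0.22, did not pass.

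*Fabp2*, a fatty acid binding protein best known from the intestine, read 9.57, 8.98, 9.14, 8.86 and 8.66 in C and 7.70, 8.08, 8.30, 7.95 and 7.59 in T10. T10 replicate 5 was the lowest, C replicate 1 the highest, and the groups did not overlap. *Fabp2* fell by 1.12 ± 0.22 (2.17-fold, adjusted p = 0.0166), and the call ended without C replicates 1 or 3 or T10 replicate 5 (range of adjusted p with 1 array out 0.0158 to 0.0757). *Cpt1a*, the gate of mitochondrial fatty acid oxidation, read 12.96 to 13.79 in C and 12.88 to 13.77 in T10. The 95% interval of its difference, -0.53 to 0.66, spans both directions. *Fgf21*, a hormone induced by PPAR-alpha, differed by -0.90 ± 0.39 (adjusted p = 0.42).

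Genes of xenobiotic metabolism lay higher in T10, 3 rising and 0 falling of 49 tested, against 0.196% and 0.206% of all genes. The 3 were *Fmo1*, *Cyp1a2* and *Ces1d*, the last given above. The list median was 0.21, and 41 of the 49 differences were positive, where 43.7% of all genes had a positive one. At an unadjusted p under 0.05, 16 were higher and 0 lower, against 4.01% and 6.11% of all genes. By array the median was 0.16 to 0.38 in T10, and -0.07 to 0.21 in C, where replicate 1 was the highest. *Fmo1*, a flavin-containing monooxygenase that oxidises drugs and dietary amines, had the smallest adjusted p of the comparison. The 250 bases before its start are given as those of the gene of smallest p. They lie at chr13:77747667-77747916 on the minus strand of GRCr8 and are printed in the direction of the gene, with a CCAAT box of the other strand (ATTGG) in capitals.

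*Fmo1*: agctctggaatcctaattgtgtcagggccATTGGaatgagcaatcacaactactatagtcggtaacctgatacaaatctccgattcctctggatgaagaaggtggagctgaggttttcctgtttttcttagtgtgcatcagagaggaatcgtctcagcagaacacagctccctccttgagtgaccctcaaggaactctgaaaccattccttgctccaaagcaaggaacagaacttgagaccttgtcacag

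*Fmo1* read 10.55, 10.54, 10.69, 10.53 and 10.83 in C and 12.10, 12.59, 12.56, 13.16 and 12.94 in T10. The gap between the groups was wider than the range of either. *Fmo1* rose by 2.04 ± 0.18 (4.12-fold, adjusted p = 8.97e-08), by 1.72 in T10 replicates 1 and 2 and by 2.26 in replicates 3 to 5. *Cyp1a2*, a cytochrome of the central lobule that metabolises caffeine and aromatic amines, read 13.34, 13.51, 13.74, 13.53 and 13.06 in C and 14.11, 14.43, 14.37, 14.18 and 14.52 in T10. The groups did not overlap, and *Cyp1a2* rose by 0.89 ± 0.16 (1.85-fold, adjusted p = 0.00821). *Gstm7*, a glutathione transferase outside the list, read 11.25, 11.22, 11.50, 11.38 and 11.23 in C and 12.08, 11.61, 12.30, 12.36 and 12.37 in T10. T10 replicate 2 was the lowest of its group and still above every C liver. *Gstm7* rose by 0.83 ± 0.15 (adjusted p = 0.0062). *Ces1d*, *Gstm7* and *Cyp1a2* belong to families of similar genes, and signal from relatives on their probe sets was not tested.

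Of the 19 NRF2 targets and antioxidant genes tested limma called 0. At an unadjusted p under 0.05, 0 were higher and 3 lower, against 4.01% and 6.11% of all genes. *Srxn1*, sulfiredoxin, differed by -0.75 ± 0.27 (adjusted p = 0.331), with C replicate 1 at 12.09 and the other C livers at 9.68 to 10. *Hmox1*, heme oxygenase, differed by -0.41 ± 0.18 (adjusted p = 0.432).

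The promoter windows of the genes that passed were searched for 5 motifs on both strands, in 300 bases from 250 before to 50 after each RefSeq start; 36 of the 43 genes had a window. For each of these genes 1 window was used. The shares set beside them are over all 33469 windows of 300 bases, not limited to 1 per gene or to genes tested here. CCAAT was in 12 of 19 windows of genes that rose and in 12 of 17 of genes that fell, against 37.5% of the 33469. TATAAA was in 5 of 19 and 0 of 17, against 14.2%. The windows of *Abcg5* and *Abcg8* overlap by 295 bases, so the TATAAA and CCAAT they share are counted in both. The E-box CACGTG was in 1 and 2, against 6.42%, CACCCCA, a core of the sterol element, in 3 and 1, against 6.93%, and the receptor half-site AGGTCA in 2 and 2, against 16.2%. The motifs do not overlap each other in the windows shown above. These are counts of letters in the windows, with no test.

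Markers of pericentral hepatocytes, the cells around the central vein, lay higher. Of 12 tested 2 rose and 0 fell, against 0.196% and 0.206% of all genes. All 12 had a positive difference, where 43.7% of all genes did, and the median was 0.27. By array the median was 0.29 to 0.38 in T10 and -0.16 to 0.12 in C. Their summed intensity was 127432 to 138425 in T10 and 88709 to 110341 in C, with 0 markers at 0. In whole liver, more cells of a type and more RNA per cell cannot be told apart. *Slc1a2*, the glutamate transporter of these cells, read 7.26, 7.34, 6.71, 6.95 and 6.71 in C and 7.80, 8.53, 8.80, 7.89 and 7.88 in T10. The groups did not overlap, and the mean of C lay below the filter level. *Slc1a2* rose by 1.19 ± 0.23 (2.28-fold, adjusted p = 0.0106), and the call ended without C replicate 3 or T10 replicate 2 (range of adjusted p with 1 array out 0.0117 to 0.0522). *Cyp1a2*, given above, was the other marker that rose, and *Cyp2e1*, an ethanol-metabolising cytochrome of the same zone, differed by 0.36 ± 0.13 (adjusted p = 0.336).

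Of 13 periportal markers limma called 0, and the list median of 0.04 changed sign after quantile normalization. At an unadjusted p under 0.05, 0 were higher and 1 lower, against 4.01% and 6.11% of all genes. *Cdh1*, E-cadherin, differed by -0.30 ± 0.11 and *Cyp2f4*, a cytochrome, by -0.18 ± 0.11 (adjusted p = 0.344 and 0.609). Of the 11 general hepatocyte markers limma called 0, with 1 higher and 0 lower at an unadjusted p under 0.05. *Serpina1*, the protease inhibitor antitrypsin, differed by 0.12 ± 0.06 (adjusted p = 0.563).

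*Cd14*, the co-receptor for bacterial lipopolysaccharide, was the only one of 15 Kupffer cell and macrophage markers and of 28 acute phase genes that passed. It read 10.59, 11.30, 10.73, 11.22 and 10.56 in C and 12.20, 11.82, 11.79, 12.59 and 12.07 in T10. Every T10 liver was above every C liver, with T10 replicate 4 the highest. *Cd14* rose by 1.21 ± 0.21 (2.32-fold, adjusted p = 0.00367). The macrophage markers had a median of -0.03, which turned positive with equal median and spread, and a summed intensity of 40501 to 46302 in C and 40141 to 55813 in T10, with 0 markers at 0. The acute phase list had a median of 0.11, and 0.002 to 0.251 over the alternative scalings of the arrays. Of its 28 differences 26 were positive, where 43.7% of all genes had a positive one. At an unadjusted p under 0.05, 5 were higher and 1 lower, against 4.01% and 6.11% of all genes. Over all genes 0.196% rose. *A2m*, alpha-2-macroglobulin, read 7.82, 8.19, 8.60, 8.25 and 9.57 in C and 10.33, 9.76, 10.34, 10.36 and 9.16 in T10. C replicate 5 lay above T10 replicate 5. The difference of 1.5 ± 0.37 did not pass (adjusted p = 0.0778), and it did without C replicate 5 (adjusted p = 0.0255).

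Markers of other cells gave no call by limma. Beside the counts at an unadjusted p under 0.05 given here, 4.01% of all genes were higher and 6.11% lower. Of 14 endothelial markers 0 passed, with 1 higher and 0 lower at an unadjusted p under 0.05. Their summed intensity was 27442 to 28607 in T10 and 24510 to 26343 in C, without overlap and with 0 markers at 0, and its part in the other results was not tested. *Lyve1* differed by 0.24 ± 0.10 and *Fcgr2b* by 0.23 ± 0.12 (adjusted p = 0.413 and 0.533). Of 14 stellate cell and fibroblast markers 1 was higher and 1 lower at an unadjusted p under 0.05, *Colec11* at 0.20 ± 0.07 and *Pdgfrb* at -0.30 ± 0.13 (adjusted p = 0.326 and 0.418). Of 7 lymphocyte markers 0 was higher and 1 lower, *Cd3g* at -0.54 ± 0.26, and *Cd79b* stood at 0.30 ± 0.16 (adjusted p = 0.492 and 0.556). Of 3 exocrine pancreas genes 1 was higher and 0 lower, *Cela1* at 0.52 ± 0.19, and *Cel* stood at 0.23 ± 0.12 (adjusted p = 0.323 and 0.549). None of 4 bile duct, 3 neutrophil, 6 blood and 6 adipose markers had an unadjusted p under 0.05; the members of smallest p were *Epcam* and *Krt19*, *S100a8* and *S100a9*, *Slc25a37* and *Bpgm*, and *Lipe* and *Cfd*. Their differences were -0.21 ± 0.14, -0.05 ± 0.14, 0.55 ± 0.38, 0.43 ± 0.32, 0.23 ± 0.13, -0.12 ± 0.16, -0.30 ± 0.18 and 0.15 ± 0.14 in that order.

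*Irs3*, an insulin receptor substrate, was the only one of 25 genes of glucose metabolism and insulin signalling that passed. It read 9.61, 9.72, 9.02, 9.45 and 8.83 in C and 8.68, 7.61, 8.46, 8.03 and 7.85 in T10. T10 replicate 1 was the highest of T10, just below C replicate 5. *Irs3* fell by 1.2 ± 0.25 (2.3-fold, adjusted p = 0.0248), and the call ended without C replicates 1, 2 or 4 or T10 replicates 2, 4 or 5 (range of adjusted p with 1 array out 0.0153 to 0.101). *Akt2*, a kinase of the same pathway, differed by -0.19 ± 0.09 (adjusted p = 0.485). The list median was 0.01 and changed sign after quantile normalization. At an unadjusted p under 0.05, 0 of the 25 were higher and 2 lower, against 4.01% and 6.11% of all genes. Over all genes 0.206% fell.

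The cell cycle and DNA replication list had 2 of 35 genes lower and 0 higher, against 0.206% and 0.196% of all genes. Its median was -0.39, and 3 of the 35 differences were positive, where 43.7% of all genes had a positive one. At an unadjusted p under 0.05, 18 were lower and 0 higher, against 6.11% and 4.01% of all genes. The shift was larger in the livers of high GAPDH ratio: it was -0.16 over T10 replicates 1 and 2 and -0.52 over replicates 3 to 5, and without the latter 0 of the genes passed. In replicates 3, 4 and 5 by array it was -0.38, -0.62 and -0.54, at ratios of 1.58, 1.51 and 1.32. Why the shift was larger in these livers was not tested. With the ratio as a covariate the median was -0.25 and neither call held (adjusted p = 0.0935 for *Ccnb2* and 0.171 for *Kif20a*). C itself ranged from -0.32 to 0.22 by array, overlapping T10. *Ccnb2*, the mitotic cyclin B2, read 10.01, 10.14, 10.05, 10.44 and 10.03 in C and 9.26, 9.60, 8.96, 8.81 and 9.47 in T10. T10 replicates 3 and 4 were the lowest, and the groups did not overlap. *Ccnb2* fell by 0.91 ± 0.18 (adjusted p = 0.0136), and the call ended without T10 replicate 4 (range of adjusted p with 1 array out 0.0115 to 0.0708). *Kif20a*, a mitotic kinesin, read 9.29, 9.53, 9.16, 9.51 and 8.96 in C and 8.58, 8.78, 8.46, 8.06 and 8.41 in T10. T10 replicate 4 was the lowest. *Kif20a* fell by 0.83 ± 0.19 (adjusted p = 0.0406), and the call ended without any 1 of 8 arrays, every one except C replicate 5 and T10 replicate 2 (range of adjusted p with 1 array out 0.0373 to 0.178).

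*Hsd11b1*, which regenerates active glucocorticoid and is higher in male rat liver, was the only one of 16 male-biased genes that passed. It read 14.28, 13.77, 14.00, 14.09 and 14.43 in C and 14.57, 14.93, 14.91, 14.93 and 14.72 in T10. All T10 livers were above all C livers, and *Hsd11b1* rose by 0.70 ± 0.10 (1.62-fold, adjusted p = 0.000726). Over all genes 0.196% rose. The list had a median of 0.31, ranging by array from -0.04 to 0.75 in T10 and from -0.21 to 0.19 in C. Of its 16 differences 14 were positive, where 43.7% of all genes had a positive one. At an unadjusted p under 0.05, 6 were higher and 0 lower, against 4.01% and 6.11% of all genes. *Cyp2c13*, a male cytochrome, differed by 0.39 ± 0.14 (adjusted p = 0.309). Of 6 female-biased genes limma called 0, with 0 higher and 1 lower at an unadjusted p under 0.05; *Trim24* differed by -0.40 ± 0.19 and *Prlr*, the prolactin receptor, by -0.64 ± 0.33 (adjusted p = 0.487 and 0.537). Of 18 genes of the growth hormone axis limma called 0, with 1 higher and 0 lower; *Serpina7*, thyroxine-binding globulin, differed by 1.11 ± 0.53 and *Socs1*, a cytokine signalling inhibitor, by 0.34 ± 0.17 (adjusted p = 0.485 and 0.527).

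Amino acid genes gave no call. Of 55 genes of amino acid catabolism and the urea cycle limma called 0, with 8 higher and 1 lower at an unadjusted p under 0.05. Over all genes 4.01% were higher and 6.11% lower at that p. The list median was 0.04. *Csad* and *Cdo1*, enzymes that lead from cysteine to taurine, read 12.08 to 12.61 in C and 12.70 to 13.39 in T10, and 15.11 to 15.34 in C and 15.34 to 15.75 in T10. Neither gene overlapped between the groups, and the differences of 0.56 ± 0.16 and 0.33 ± 0.09 did not pass (adjusted p = 0.151 and 0.121). Of 29 genes of the ATF4 amino acid response limma called 0, with 2 higher and 2 lower; *Slc3a2*, a chain of amino acid exchangers, differed by 0.55 ± 0.15 (adjusted p = 0.138). Of 18 clock genes limma called 0, with 0 higher and 1 lower; *Npas2* differed by -0.33 ± 0.14 and *Clock* by -0.30 ± 0.15 (adjusted p = 0.404 and 0.528).

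**Figure D4:**
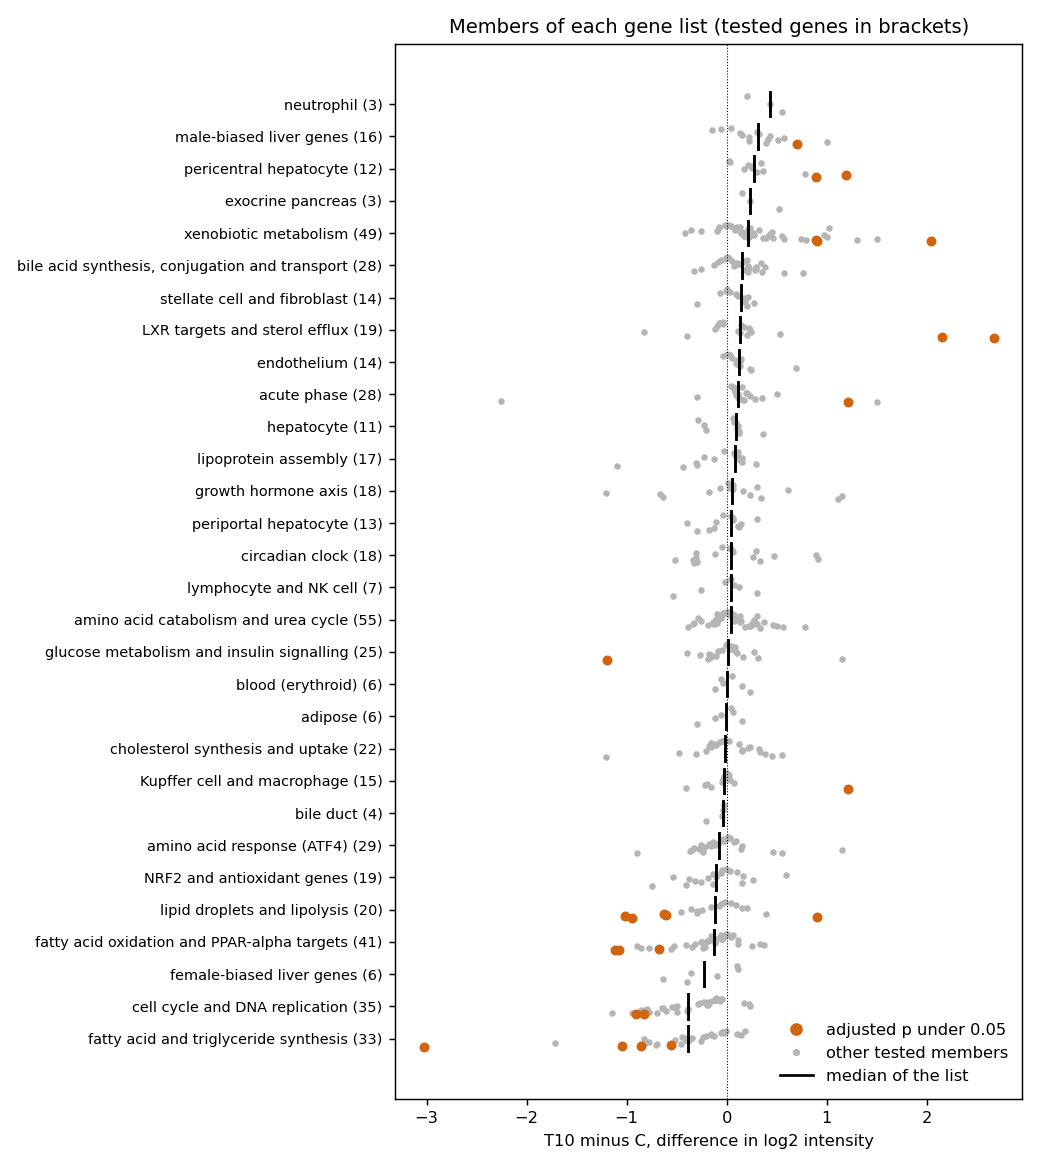
Each row is a gene list with the number of its genes tested, each point is a gene placed at T10 minus C in log2 intensity, orange points passed, and the bar is the list median. Fatty acid synthesis and the cell cycle both have a median of -0.39, and the pericentral and male-biased lists lie at 0.27 and 0.31.

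Genes outside the lists made up the rest of those that passed. *Pcp4l1* read 6.89, 7.11, 7.60, 7.58 and 7.05 in C and 7.86, 9.53, 9.30, 9.52 and 9.52 in T10. T10 replicate 1 lay far below the other T10 livers and just above the highest C liver. *Pcp4l1* rose by 1.90 ± 0.35 (3.73-fold, adjusted p = 0.0096), and the mean of C was below the filter level. The other probe set of *Pcp4l1*, at 1.22 ± 0.35, did not pass (adjusted p = 0.171). *LOC102554026* read 9.24, 9.34, 8.57, 9.31 and 9 in C and 10.18, 10.18, 10.27, 10.16 and 10.01 in T10. The T10 livers spanned less than the C livers and lay above them all. *LOC102554026* rose by 1.07 ± 0.15 (2.1-fold, adjusted p = 0.000547).

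*Hectd2*, a ubiquitin ligase, read 7.94, 8.04, 7.69, 7.65 and 7.61 in C and 6.50, 7.29, 6.76, 6.62 and 7.18 in T10. All T10 livers were below all C livers, with a T10 mean under the filter level. *Hectd2* fell by 0.92 ± 0.20 (adjusted p = 0.0314), and the call ended without C replicates 1, 2 or 3 or T10 replicates 1, 3 or 4 (range of adjusted p with 1 array out 0.0312 to 0.12). *Aldh1b1*, a mitochondrial aldehyde dehydrogenase, read 10.91, 10.57, 10.95, 10.44 and 10.83 in C and 10.12, 9.44, 9.49, 9.89 and 10.31 in T10. T10 replicate 2 was the lowest and the groups did not overlap. *Aldh1b1* fell by 0.89 ± 0.19 (adjusted p = 0.0339), and the call ended without C replicates 1, 3 or 5 or T10 replicates 2, 3 or 4 (range of adjusted p with 1 array out 0.0256 to 0.143).

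Of the other genes that rose, *Cnn3*, an actin-binding calponin, rose by 0.66 ± 0.11 and *Car3*, a carbonic anhydrase abundant in male rat liver, by 0.52 ± 0.09 (adjusted p = 0.00367 and 0.00706). These calls held whichever 1 array was left out. *Slc13a3*, a dicarboxylate transporter, rose by 0.82 ± 0.18 (adjusted p = 0.0362), not without any 1 of 8 arrays, every one except C replicates 1 and 3 (range of adjusted p with 1 array out 0.0358 to 0.104). *Sat2*, an acetyltransferase, rose by 0.53 ± 0.12 (adjusted p = 0.0488), not without any 1 of 9 arrays, every one except T10 replicate 5 (range of adjusted p with 1 array out 0.0381 to 0.162). *Ang*, the ribonuclease angiogenin, rose by 0.43 ± 0.09 (adjusted p = 0.0248), not without any 1 of 7 arrays, every one except C replicate 2 and T10 replicates 1 and 3 (range of adjusted p with 1 array out 0.0295 to 0.105). *P4ha2*, a subunit of collagen prolyl hydroxylase, rose by 0.40 ± 0.09 (adjusted p = 0.0292), not without any 1 of 8 arrays, every one except C replicate 4 and T10 replicate 1 (range of adjusted p with 1 array out 0.0382 to 0.0988).

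The remaining rises were those of *Tmem229a*, *Rnf149*, *Slc16a7* and *Adk*. *Tmem229a* rose by 0.48 ± 0.11 (adjusted p = 0.0476), not without any 1 of 8 arrays, every one except C replicate 4 and T10 replicate 3 (range of adjusted p with 1 array out 0.0154 to 0.195). *Rnf149*, a ubiquitin ligase, rose by 0.38 ± 0.08 (adjusted p = 0.0337), not without any 1 of 8 arrays, every one except C replicate 4 and T10 replicate 1 (range of adjusted p with 1 array out 0.0268 to 0.128). *Slc16a7*, a monocarboxylate transporter, rose by 0.31 ± 0.07 (adjusted p = 0.0392), not without any 1 of 7 arrays, every one except C replicates 1 and 2 and T10 replicate 1 (range of adjusted p with 1 array out 0.0415 to 0.147). *Adk*, adenosine kinase, rose by 0.28 ± 0.06 (adjusted p = 0.0406), not without any 1 of 9 arrays, every one except C replicate 2 (range of adjusted p with 1 array out 0.0347 to 0.125).

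Among the other genes that fell, *Secisbp2l*, a relative of a selenoprotein translation factor, fell by 0.61 ± 0.12 (adjusted p = 0.00995), and the call held whichever 1 array was left out. *P2ry2*, a receptor for extracellular nucleotides, fell by 0.83 ± 0.17 (adjusted p = 0.0224), not without C replicates 1 or 5 or T10 replicates 2, 4 or 5 (range of adjusted p with 1 array out 0.0222 to 0.0922). *Xpc*, which recognises DNA damage, fell by 0.63 ± 0.14 (adjusted p = 0.0337), not without C replicates 1, 2 or 3 or T10 replicates 2, 4 or 5 (range of adjusted p with 1 array out 0.0171 to 0.128). *Csrp1*, a LIM domain protein, fell by 0.62 ± 0.14 (adjusted p = 0.0436), not without any 1 of 8 arrays, every one except C replicate 2 and T10 replicate 3 (range of adjusted p with 1 array out 0.0414 to 0.162). *Mapkapk5*, a stress kinase, fell by 0.44 ± 0.09 (adjusted p = 0.027), not without any 1 of 7 arrays, every one except C replicate 5 and T10 replicates 1 and 3 (range of adjusted p with 1 array out 0.0165 to 0.105). *Cdk13*, a kinase of RNA polymerase, fell by 0.41 ± 0.08 (adjusted p = 0.0136), not without C replicate 3 or T10 replicates 2 or 4 (range of adjusted p with 1 array out 0.00652 to 0.0744), and another of its probe sets had the opposite sign. *Ddb1*, a subunit of a ubiquitin ligase that acts in DNA repair, and *Plxna2*, a semaphorin receptor, each had 1 probe set lower, at -0.78 ± 0.16 and -0.58 ± 0.13 (adjusted p = 0.0224 and 0.0424). The *Ddb1* call ended without C replicates 3 or 5 or T10 replicates 1, 4 or 5 (range of adjusted p with 1 array out 0.023 to 0.092), and its other probe sets, the brightest among them, stood at -0.04 ± 0.10 and 0.00 ± 0.10. The *Plxna2* call ended without any 1 of 8 arrays, every one except T10 replicates 1 and 3 (range of adjusted p with 1 array out 0.0274 to 0.188), and its other probe sets, at -0.71 ± 0.19 and -0.53 ± 0.13, did not pass (adjusted p = 0.134 and 0.086).

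Genes were read against the second casein group too. T10 against CI gave 48 of 10699 genes (0.449%) and 74 of 18625 probe sets (0.397%), 40 higher and 34 lower. After centring of the arrays on their medians the probe sets were 184 higher and 30 lower, and 58 and 25 with equal median and spread. The T10 arrays are the same in both comparisons, so the values are set side by side. Against CI *Abcg8* differed by 2.52 ± 0.42, *Abcg5* by 2.19 ± 0.35 and *Fmo1* by 1.97 ± 0.18 (adjusted p = 0.00219, 0.00146 and 2.06e-07). *Pnpla3* differed by -3.43 ± 0.47, *Me1* by -0.87 ± 0.19 and *Plin3* by -0.88 ± 0.13 (adjusted p = 0.000392, 0.0242 and 0.000639). *Cd14* was at 1.32 ± 0.21, *Cyp1a2* at 1.17 ± 0.16 and *Ces1d* at 0.89 ± 0.16 (adjusted p = 0.00132, 0.000392 and 0.00702). Each of these genes passed against both casein groups.

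Of the 43 genes 20 passed against CI, with the T10 arrays shared, and the others did not. *Hsd11b1*, at 0.70 ± 0.10 against C, was at 0.16 ± 0.10 against CI (adjusted p = 0.528). *Tmem229a* was at 0.15 ± 0.11, *Cdk13* at -0.14 ± 0.08, *Kif20a* at -0.23 ± 0.19 and *Ccnb2* at -0.34 ± 0.18 (adjusted p = 0.579, 0.475, 0.619 and 0.442). *Acacb* was at -0.63 ± 0.18 and *Pgd* at -0.50 ± 0.12 (adjusted p = 0.123 and 0.0611). The difference between C and CI was not tested for these genes, and a p that misses the threshold does not show that T10 and CI were alike. The list medians against CI were -0.23 for fatty acid synthesis, -0.20 for the cell cycle, 0.19 for xenobiotic metabolism and 0.52 for pericentral markers.

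Values of T20 are set beside those of T10. T20 minus C, which shares the C arrays, was 2.71 for *Abcg8*, 2.09 for *Abcg5*, 2.04 for *Fmo1*, -3.96 for *Pnpla3*, -1.76 for *Me1* and -0.58 for *Plin3*. The direct test of T20 against T10 called 0 of 18625 probe sets by limma (0%), with 1318 (7.08%) at an unadjusted p under 0.05. T20 minus T10 was 0.05 ± 0.42 for *Abcg8*, -0.07 ± 0.35 for *Abcg5*, 0.00 ± 0.18 for *Fmo1*, -0.71 ± 0.19 for *Me1*, -0.93 ± 0.47 for *Pnpla3* and 0.37 ± 0.13 for *Plin3* (adjusted p = 0.988, 0.977, 0.999, 0.353, 0.721 and 0.507). These values do not show that the amounts of tofu act alike.

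The smallest p between T20 and T10 belonged to *Hectd2*, at 1.13 ± 0.20 (adjusted p = 0.0774), *Gpt*, alanine aminotransferase, at 1.17 ± 0.22 (adjusted p = 0.115) and *Rgs5*, a regulator of G protein signalling, at 0.60 ± 0.13 (adjusted p = 0.282). *Hectd2* had fallen in T10 against C, while T20 stood at 0.21 from C. *Gpt* read 10.90, 11.79, 11.49, 12.12 and 11.17 in C and 10.43, 11.24, 11.42, 11.23 and 11.49 in T10. T10 replicate 1 was the lowest and the others lay within the C range; *Gpt* differed by -0.33 ± 0.22 from C in T10 and by 0.84 in T20.

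Without T10 replicates 3, 4 and 5, which leaves 2 T10 livers, 11 probe sets and 7 of the 43 genes passed. The genes were *Abcg8*, *Fmo1*, *LOC102554026*, *Me1*, *Acacb*, *Plin3* and *Ddhd2*, with adjusted p = 0.0451, 0.00058, 0.0464, 0.0373, 0.0373, 0.0451 and 0.0373. Over T10 replicates 1 and 2 the mean difference from C was -2.69 for *Pnpla3*, 2.31 for *Abcg5*, 1.13 for *Cd14*, 0.84 for *Cyp1a2* and 0.53 for *Gstm7*. Over replicates 3 to 5 it was -3.25, 2.05, 1.27, 0.92 and 1.02. With the GAPDH ratio as a covariate 39 probe sets and 24 of the 43 genes passed. Among the genes that rose, the call ended with the covariate for *Pcp4l1*, *Slc13a3*, *P4ha2*, *Rnf149*, *Slc16a7* and *Adk*. Among those that fell, it ended for *Pgd*, *Mgll*, *Acot4*, *Acot2*, *Irs3*, *Ccnb2*, *Kif20a*, *Hectd2*, *Aldh1b1*, *P2ry2*, *Xpc*, *Csrp1* and *Mapkapk5*. Whether RNA quality caused any of these differences was not tested.

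Other arrays also moved the count. It was 36 probe sets without C replicate 1, 27 without C replicate 3, 32 without T10 replicate 2, 30 without T10 replicate 4 and 36 without T10 replicate 5, against 60 with all arrays. Of the 43 genes, 16 passed whichever of the 10 arrays was left out. They were *Abcg8*, *Abcg5*, *Fmo1*, *Pcp4l1*, *Cd14*, *LOC102554026*, *Ces1d*, *Cyp1a2*, *Gstm7*, *Hsd11b1*, *Cnn3* and *Car3* among those that rose, and *Pnpla3*, *Plin3*, *Me1* and *Secisbp2l* among those that fell.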

How the data were processed

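Livers of 30 rats on 6 diets were each profiled on 1 Affymetrix array from biotin-labelled cRNA, per the labels, which call the arrays of a diet biological replicates. The authors deposited a linear intensity for every probe set of each array. Per the labels the SuperNORM service supplied the distribution parameters used to normalize them; its reference level and the return to a linear scale are not given in the sources used here. Values under 16 were set to 16 before the log2 transform, 57 control probe sets were left out, and probe sets with a mean over all arrays above the 40th percentile (log2 7.388, intensity 167.6) were tested (18625, covering 10699 genes). Symbols are those of RefSeq, matched by the gene identifier of the platform annotation, or those of that annotation where none matched. Probe sets with several symbols or none are not named.

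A group-means model over the 30 arrays was fitted in limma 3.58.1 under R 4.3.3 (24 residual degrees of freedom, variance trend, two-sided tests, Benjamini-Hochberg over all tested probe sets within a comparison, threshold 0.05). Genes named were all that passed through the tested probe set of highest mean, the 2 members of smallest p in lists with fewer than 2 such genes, a set of 20 lipid genes and the 3 genes of smallest p between T20 and T10. The 31 lists (19 of pathways, 12 of cell types; 531 genes tested of 670 entries on the array) and the members were chosen with earlier results of these data known. On simulated data with 200 of 18625 probe sets changed, the T10 against C fit found 52.2% of the 1.5-fold, 95.5% of the 2-fold and 97% of the 4-fold changes and made 12 false calls among 175. The simulated noise was normal, independent between arrays and of equal spread in every diet. A changed probe set had the same shift in all T10 arrays. The real arrays need not meet these conditions, so the shares found may not hold for them. Promoter sequences are from RefSeq, build GRCr8, used only for the genes shown and the motif counts. Plots were made in matplotlib 3.10.9 (Python 3.11.15). The authors' deposited p-values were not used here.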

Additional observations from a re-analysis of the deposited data

Results flagged for a closer look

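In 198 groups of 5 arrays examined for the genes named above, 9 held an array far from the other 4, where chance gives about 1 in 20. In T10, *Pcp4l1* was 7.86 in replicate 1 and 9.30 to 9.53 in the others, and *Gpt* was 10.43 in replicate 1 and 11.23 to 11.49 in the others. T10 replicate 3 had *P4ha2* at 10.14, the others 9.83 to 9.92, and *Lyve1* at 11.95, the others 12.23 to 12.29. In C, replicate 1 was the high array for 4 genes. *Srxn1* was 12.09 in it and 9.68 to 10 in the other C livers, *Angptl8* 12.93 against 10.94 to 11.43, *Elovl6* 10.67 against 10.07 to 10.24 and *Secisbp2l* 10.32 against 9.90 to 9.98. C replicate 5 had *Socs1* at 8.09, the others 7.71 to 7.74.

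*Gpt*, alanine aminotransferase, lay above the C mean in every T20 liver and at or below it in the T10 livers on the scale used, and T20 minus T10 was 1.17 ± 0.22. The direct limma test of that difference did not pass (adjusted p = 0.115).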

How the results depend on the processing

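The count of probe sets between T10 and C was 60. It was 39 after scaling to equal median and spread, 94 with array weights, 39 with the GAPDH ratio as a covariate, 11 without T10 replicates 3, 4 and 5, 27 with C replicate 3 and CI replicate 3 both left out (their SuperNORM parameters in the labels are the same), 34 from the T10 and C arrays alone, 24 at a threshold of 0.01, and 27 to 69 with 1 array left out. T10 against CI gave 74, and 113 after quantile normalization, 214 with arrays centred on their median (184 higher and 30 lower, against 40 and 34), 129 with array weights, 23 without T10 replicates 3, 4 and 5 and 45 to 86 with 1 array left out. T20 against T10 gave 0, and 1 from the arrays of those diets alone. The other alternatives (floors of 1 and 64, no filter or a 60th percentile filter, no variance trend) left each count within 1.5 times. Fewer arrays and fewer probe sets follow from some of these alternatives; otherwise the cause was not tested.

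Deviations from the diet means correlated at -0.155 to 0.114 between same-numbered T10 and C livers, 1 of 5 over 0.1. Of 10 arrays 1 correlated best with its own number. Weak correlations cannot show that the numbers carry no pairing, and the main fit used none. With the replicate number as a block the counts were 76, 110 and 0, and 40 of the 43 genes passed. All 43 kept their direction under every alternative in which they were tested, and the 60th percentile filter kept 38 of them. Of the 43, 16 passed whichever array was left out and 5 under all alternatives that tested them. *Abcg8*, 1 of these 5, was not tested under that filter. *Nr0b2*, at 0.20, was -0.10 without T10 replicates 3, 4 and 5, -0.11 without C replicate 4 and -0.10 without T10 replicate 5 (up to 0.52 with another array left out). *Cpt1a*, at 0.06, was -0.04 with the GAPDH covariate, -0.04 without C replicate 2 and -0.02 without T10 replicate 5 (up to 0.20). Dim probe sets such as *Abcg8*, *Pcp4l1* and *Slc1a2* in C sit near background, so their folds are less certain than those of bright ones.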
